A study of Homo sapiens with 14 samples.

Results

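Polycomb repressive complex 2 (PRC2) was followed through the mRNA of 10 genes that encode its subunits: the catalytic subunits EZH1 and EZH2, the core subunits SUZ12 and EED, the histone-binding subunits RBBP4 and RBBP7, and the accessory subunits JARID2, MTF2, PHF19 and PHF1. The genes were chosen by name, with earlier results of these data known, and all 10 were found among the 19923 genes of the count tables. The study sequenced polyadenylated RNA of SK-N-BE2, a permanent human neuroblastoma line that carries extra copies of MYCN, in 14 libraries that form 7 groups of 2 replicates. In the labelled batch 1 the groups were H2O (the vehicle control), 10 µM CoCl2 and 50 µM CoCl2, all of genotype WT. Cobalt ions imitate low oxygen in cultured cells, because they keep hypoxia-inducible factors from being degraded. In batch 2 the groups were WT and TET2 KO numbers 1, 2 and 3, all with no treatment. The TET2 enzyme converts methylated cytosines of DNA to 5-hydroxymethylcytosine, which the series title links to PRC2 function. It is not stated by the labels how the TET2 edits were introduced, whether each number is 1 clone, how long CoCl2 was given, or whether replicates were separate cultures. The p-values below therefore measure the spread between these libraries, which may be technical.

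PRC2 places methyl groups on lysine residues of histone H3 and is best known for the trimethylated mark H3K27me3, which accompanies silenced developmental genes. EZH1 or EZH2 carries out the reaction, and neither works without SUZ12 and EED. EZH2 is typical of dividing cells and EZH1 of resting cells. Accessory subunits bind the SUZ12 scaffold in alternative sets. The Polycomb-like proteins MTF2, PHF19 and PHF1 define one class of the complex, and JARID2, together with AEBP2, defines the other. In MYCN-amplified neuroblastoma, EZH2 has been studied as a factor that keeps differentiation genes silent.

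The promoters of EZH1 and EZH2 are printed here because these genes encode the alternative catalytic subunits, whose transcripts moved by different amounts in the comparisons below. Each stretch holds the 250 bases before a RefSeq start site (GRCh38.p14), written 5′ to 3′ along the gene with CG dinucleotides in capitals. The EZH1 window is chr17:42745041-42745290 on the minus strand, and the EZH2 window is chr7:148884292-148884541 on the minus strand.

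EZH1: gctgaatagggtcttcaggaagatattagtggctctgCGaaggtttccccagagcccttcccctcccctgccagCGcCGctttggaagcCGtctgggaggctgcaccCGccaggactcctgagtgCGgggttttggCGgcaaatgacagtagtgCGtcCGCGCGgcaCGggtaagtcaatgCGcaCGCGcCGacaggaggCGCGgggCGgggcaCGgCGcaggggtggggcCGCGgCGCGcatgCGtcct
EZH2: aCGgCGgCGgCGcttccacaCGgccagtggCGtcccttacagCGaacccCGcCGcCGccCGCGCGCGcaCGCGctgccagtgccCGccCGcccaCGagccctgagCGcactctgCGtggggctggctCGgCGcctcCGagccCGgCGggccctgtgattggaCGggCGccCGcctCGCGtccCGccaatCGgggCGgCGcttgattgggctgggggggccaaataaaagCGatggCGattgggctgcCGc

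The EZH1 window held 26 CG dinucleotides and this EZH2 window 38, against a median of 11 over all 35116 RefSeq windows of the same length. The second EZH2 start site in the table had 39. All 10 genes had at least 1 window, 15 in all, and 14 of the 15 lay above the median of all windows. The range ran from 11 in EED to 48 in RBBP7. DNA methylation was not measured in these libraries.

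Windows extended to 50 bases after the start were searched on both strands for ACGTG, the core of the element bound by hypoxia-inducible factors, for CACGTG, the E-box that MYC proteins can bind, and for TTTGGCGC and TTTCGCGC, forms of the E2F element of cell-cycle promoters. The first of these lies inside the E-box. In all, ACGTG was found in 3 of the 10 genes (EED, JARID2 and RBBP4), and in 24.9% of all 27305 genes with a window. CACGTG was found in RBBP4 and in 8.77% of all genes. TTTGGCGC was found in EZH2 and in 0.795% of all genes, while TTTCGCGC was in 0 of the 10 and in 0.63% of all genes. The matches follow for the E2F-type element of EZH2 (chr7:148884272-148884301, minus strand), the E-box of RBBP4 (chr1:32650960-32650987, plus strand) and the ACGTG of EED (chr11:86244665-86244691, plus strand), with the motif in capitals.

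EZH2 TTTGGCGC: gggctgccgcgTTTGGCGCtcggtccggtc
RBBP4 CACGTG: caaacctctctCACGTGaccctgaccgg
EED ACGTG: agattaaggaaACGTGgcatgcacagc

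The EZH2 match began at position 2, the base right after the start site, the RBBP4 match at position -237 and the EED match at position -77. A match describes the letters of the window and does not show that a factor binds there.

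Depth was ample for every subunit. A batch 1 library held 31214128 to 39540111 counts and a batch 2 library 52095024 to 59263320, and the counts of a single subunit ranged from 814 to 8940 and from 979 to 16672. Batch 2 counts mostly stood for single reads of a pair, so levels are compared within a batch. All 10 genes passed the filter on low counts in both batches. The labelled cell type was checked with 12 adrenergic neuroblastoma markers, whose summed level was 7231 to 12860 CPM, led by MYCN. CPM here means counts scaled to a common library total after TMM normalization. TET2 mRNA, the check on the knockout labels, was at 70.8 and 64.8 CPM in WT, at 80.4 and 76.6 CPM in knockout 1, at 87.4 and 91.1 CPM in knockout 2 and at 68.2 and 75.4 CPM in knockout 3. It was thus not lower in any of them. It was called higher in knockout 1 (log2 fold change 0.21, adjusted p 0.000664), in knockout 2 (0.40, adjusted p 3.86e-12) and in the average (0.23, adjusted p 2.5e-06), and not in knockout 3 (0.08, adjusted p 0.301). Counts per gene cannot show an edit. They are therefore called labelled knockouts, and what is said of them relies on their names.

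Within a batch, the order of the subunits was compared on CPM per kilobase of exon. In H2O, RBBP7 (26.9 ± 0.181, SD, n = 2) and RBBP4 (23.7 ± 0.104) were the most abundant. Both encode WD-repeat proteins that other chromatin complexes share with PRC2. MTF2 (13.5 ± 0.223), SUZ12 (13.0 ± 0.00992), EZH2 (12.0 ± 0.509), JARID2 (11.5 ± 0.412) and PHF19 (10.0 ± 0.0861) formed a middle tier, in which EZH2 and JARID2 overlapped between libraries. PHF1 (6.37 ± 0.379), EZH1 (5.62 ± 0.343) and EED (5.28 ± 0.0994) were lowest. In WT of batch 2 the first 4 places were RBBP4 (30.1 ± 1.31), RBBP7 (24.2 ± 1.08), EZH2 (22.3 ± 0.666) and SUZ12 (21.5 ± 0.284). EED, PHF1 and EZH1 again came last and each overlapped the next. H2O and WT were in different batches, so batch, culture and the way of counting cannot be told apart for the place of EZH2, which had rank 5 in H2O and rank 3 in WT. RBBP4 shares 2160 exonic bases with SYNC, RBBP7 shares 179 with TXLNG and PHF1 shares 12 with CUTA, each on the opposite strand. Counting did not use strand, so their values may hold reads of those neighbours. SUZ12 (1), EZH2 (1) and RBBP4 (6) also have pseudogenes named after them, which were not among the protein-coding genes counted. How reads that match both a gene and such a copy were handled was not examined, so these values may be affected.

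**Figure D1:**
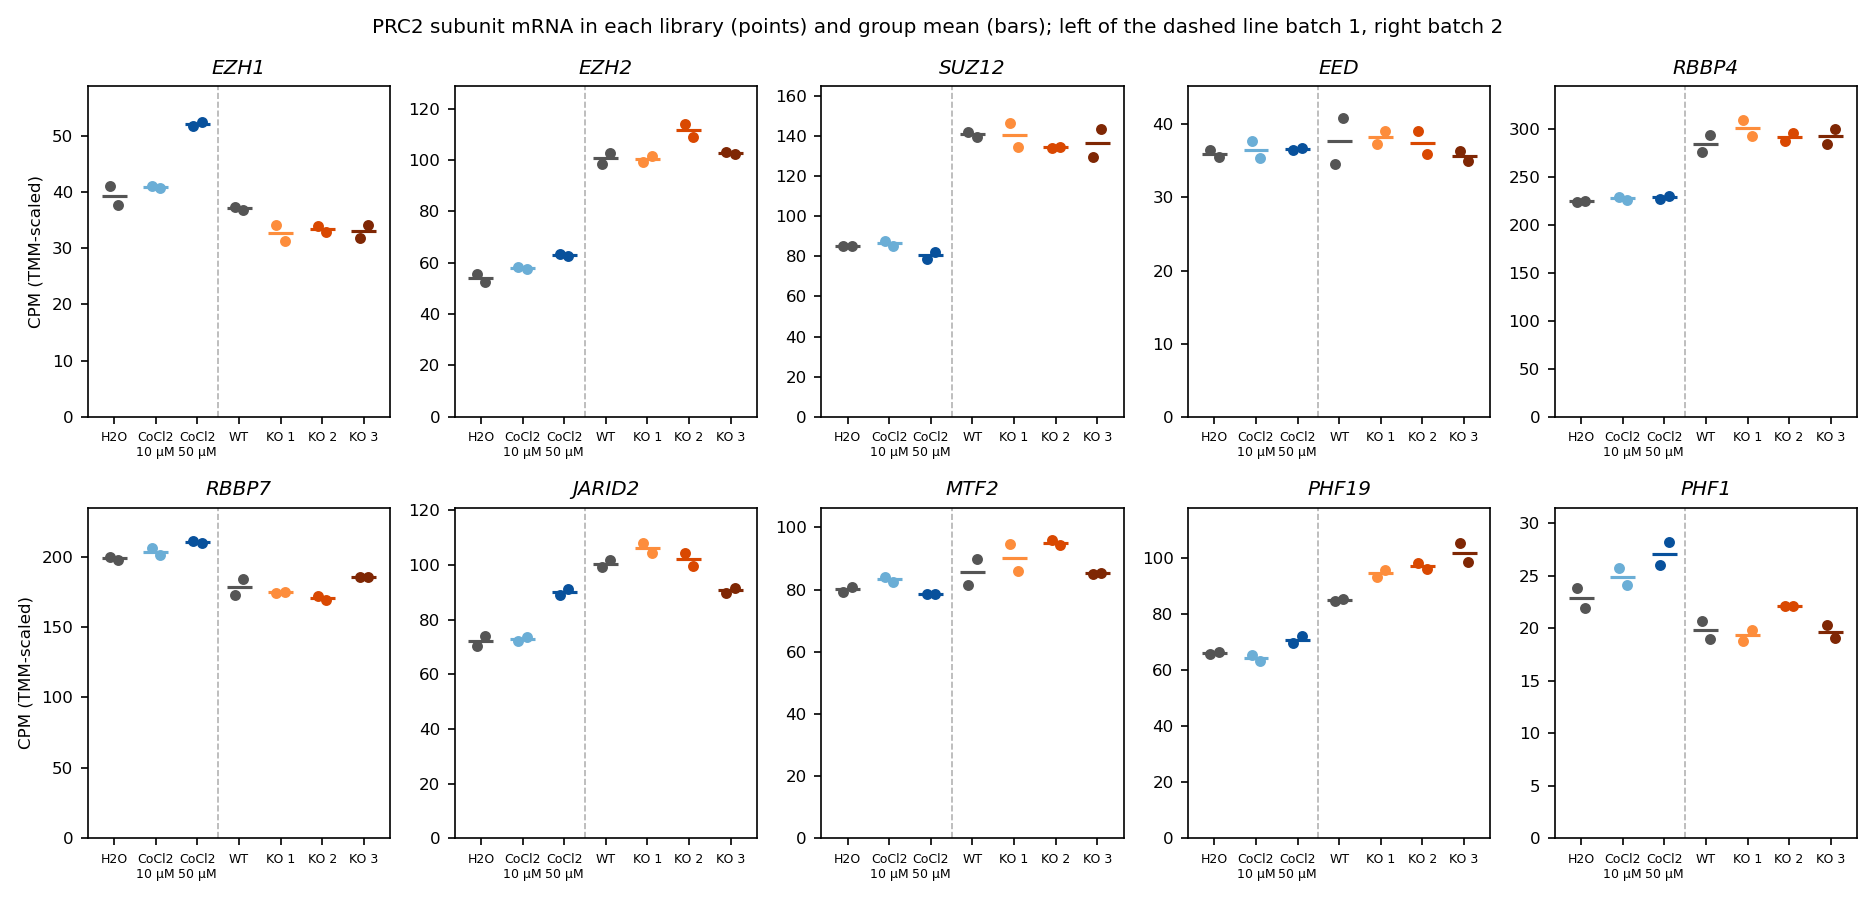
Each panel plots 1 PRC2 subunit gene, with CPM (TMM-scaled, from 0) on the y axis and the 7 groups on the x axis. Points are the 2 libraries of a group and bars their mean. EZH1 stands at 51.7 and 52.4 CPM at 50 µM CoCl2, above the other batch 1 libraries. Levels are to be compared within a batch, because the counting differed.

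The first comparison asks how the subunit transcripts responded to cobalt. At 50 µM CoCl2, 6 of 10 subunits rose and 1 fell, whereas at 10 µM 1 rose. The largest changes were those of EZH1, a 1.33-fold rise, and JARID2, a 1.25-fold rise, and no subunit changed by as much as these at 10 µM. All adjusted p-values were computed by Benjamini-Hochberg over all genes tested, from the quasi-likelihood F-test of edgeR. It called 61.4% of 13636 genes at 50 µM (30.4% higher, 31.1% lower) and 22.7% at 10 µM (11.6% higher, 11.1% lower). The 7 of 10 subunits called at 50 µM are thus close to the share of all genes. They were 6 higher and 1 lower, where all genes split nearly evenly. The median log2 fold change of the 10 was 0.09 at 50 µM, against 0.00 for all genes tested (0.002), where rises and falls cancel. Taken without sign, the median change was 0.09 for the 10 and 0.17 for all genes. The median of the subunits thus lay below that of all genes. EZH1 (0.41), JARID2 (0.32), PHF1 (0.25) and EZH2 (0.22) changed more than the all-gene median, and the other subunits less.

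EZH1 (chromosome 17, 42700275 to 42745049, minus strand) encodes the catalytic subunit with the weaker methyltransferase activity. It was measured at 41.0 and 37.6 CPM in H2O, at 41.0 and 40.7 CPM at 10 µM and at 51.7 and 52.4 CPM at 50 µM. Both 50 µM libraries lay above the other 4, and the H2O and 10 µM libraries overlapped. The log2 fold change against H2O was 0.41 at 50 µM (SE 0.04, adjusted p 2.07e-18) and 0.06 at 10 µM (SE 0.04, adjusted p 0.348).

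EZH2 (chromosome 7, 148807383 to 148884321, minus strand), the main methyltransferase of dividing cells, increased less. Its level was 55.8 and 52.6 CPM in H2O, 58.6 and 57.5 CPM at 10 µM and 63.3 and 62.6 CPM at 50 µM. The 3 groups did not overlap and were ordered by dose. The log2 fold change was 0.10 at 10 µM (SE 0.04, adjusted p 0.0293) and 0.22 at 50 µM (SE 0.04, adjusted p 3.27e-08), and the doses differed by 0.12 (adjusted p 0.00303). The call at 10 µM was lost in 6 of 14 alternatives, among them DESeq2 and the analyses without H2O replicate 2 (log2 fold change 0.05) and without either 10 µM library (0.09 and 0.11). Across those 14 the adjusted p ran from 0.0129 to 0.452.

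Among the core and histone-binding subunits, changes were small. SUZ12 (chromosome 17, 31937007 to 32001038, plus strand), the scaffold of the complex, was at 85.2 and 85.3 CPM in H2O and at 78.7 and 82.2 CPM at 50 µM. It fell by 0.08 on the log2 scale (SE 0.03, adjusted p 0.015), the one subunit called lower. This call was lost in DESeq2, in a fit of all 14 libraries and without 50 µM replicate 1, where the log2 fold change was -0.05, with adjusted p-values from 0.00517 to 0.217 over 14 alternatives. RBBP7 (chromosome X, 16839283 to 16870414, minus strand) rose from 200 and 198 CPM in H2O to 211 and 210 CPM at 50 µM, a rise of 0.08 on the log2 scale (SE 0.02, adjusted p 0.000497). EED (chromosome 11, 86244753 to 86278813, plus strand), the subunit that reads the mark, was at 36.4 and 35.5 CPM in H2O and at 36.5 and 36.8 CPM at 50 µM. RBBP4 (chromosome 1, 32651142 to 32686211, plus strand) was at 224 and 225 CPM in H2O and at 227 and 231 CPM at 50 µM. Neither EED (log2 fold change 0.03, 95% interval -0.06 to 0.11, adjusted p 0.588) nor RBBP4 (0.03, -0.01 to 0.07, adjusted p 0.255) passed the test.

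The accessory subunits did not move together. JARID2 (chromosome 6, 15246069 to 15522042, plus strand), a Jumonji family protein without demethylase activity that helps recruit PRC2, was at 70.3 and 73.9 CPM in H2O, 72.3 and 73.8 CPM at 10 µM and 89.1 and 91.3 CPM at 50 µM. The 10 µM libraries lay inside the range of H2O, and the 50 µM libraries lay above both groups. The log2 fold change was 0.32 at 50 µM (SE 0.03, adjusted p 6.22e-19) and 0.02 at 10 µM (SE 0.03, adjusted p 0.719). Of the Polycomb-like genes, whose proteins bring PRC2 to CpG islands, PHF1 (chromosome 6, 33410399 to 33416453, plus strand) was the least abundant, at 23.9 and 21.9 CPM in H2O, 25.8 and 24.1 CPM at 10 µM and 26.1 and 28.2 CPM at 50 µM. It rose at 50 µM by 0.25 (SE 0.05, adjusted p 1.48e-05). At 10 µM its log2 fold change was 0.12 (adjusted p 0.0811), which did not pass the test.

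PHF19 (chromosome 9, 120855651 to 120894896, minus strand) was at 65.6 and 66.4 CPM in H2O, 65.5 and 63.4 CPM at 10 µM and 69.6 and 72.0 CPM at 50 µM. The rise of 0.10 at 50 µM (SE 0.03, adjusted p 0.00479) was lost in DESeq2, in a fit of all 14 libraries and without 50 µM replicate 2, where it was 0.08. Its adjusted p ran from 0.00199 to 0.105 over 14 alternatives. MTF2 (chromosome 1, 93079235 to 93139079, plus strand) was at 79.1 and 81.0 CPM in H2O, 84.2 and 82.6 CPM at 10 µM and 78.5 and 78.7 CPM at 50 µM. It was highest at 10 µM and did not differ beyond the spread from H2O at 50 µM (log2 fold change -0.03, 95% interval -0.09 to 0.03, adjusted p 0.47).

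At 10 µM, the subunits SUZ12 (log2 fold change 0.02, adjusted p 0.688), EED (0.02, adjusted p 0.775), RBBP4 (0.02, adjusted p 0.572), RBBP7 (0.03, adjusted p 0.3), MTF2 (0.06, adjusted p 0.155) and PHF19 (-0.04, adjusted p 0.476) were not called.

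**Figure D2:**
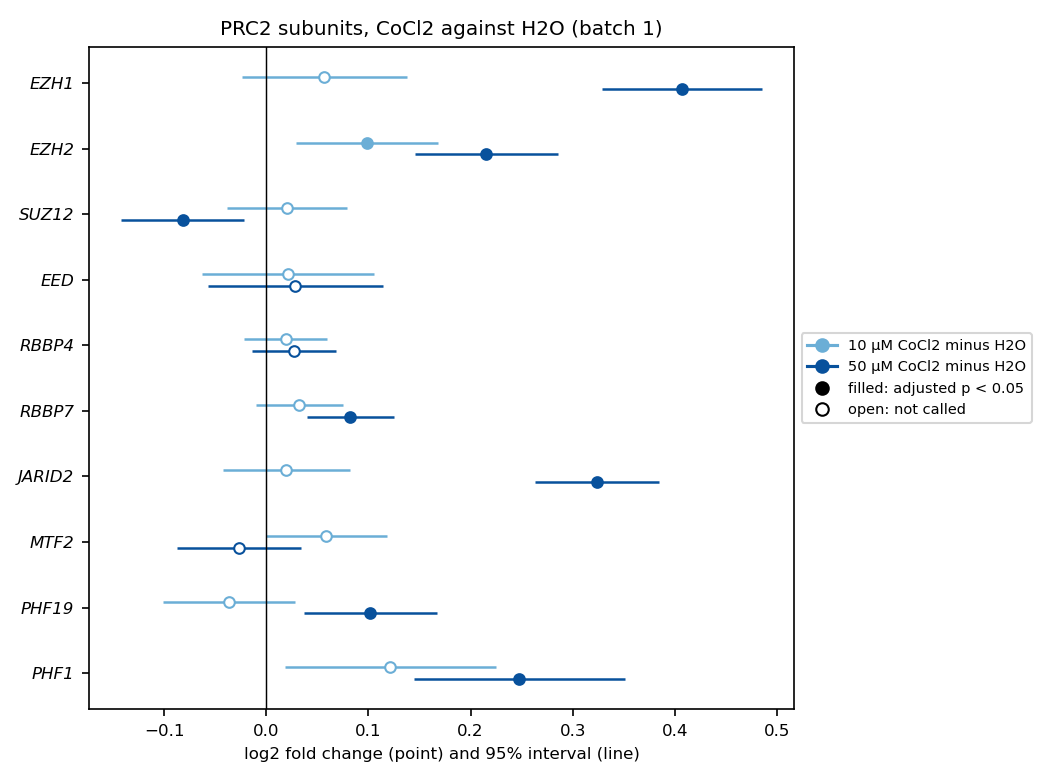
The x axis gives the log2 fold change against H2O of each PRC2 subunit (y axis), as a point with its 95% interval, for 10 µM CoCl2 (light) and 50 µM CoCl2 (dark). Filled points passed an adjusted p of 0.05. EZH1 (0.41) and JARID2 (0.32) stand farthest to the right at 50 µM, while all 10 µM points lie between -0.04 and 0.12.

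Tested directly between the doses, 8 of 10 subunits differed, against 52.8% of all genes (26.2% higher at 50 µM, 26.5% lower). EZH1 (log2 difference 0.35, adjusted p 2.33e-14), JARID2 (0.30, adjusted p 9.12e-17), PHF19 (0.14, adjusted p 0.000202), PHF1 (0.13, adjusted p 0.0329), EZH2 (0.12) and RBBP7 (0.05, adjusted p 0.0443) were higher at 50 µM than at 10 µM. SUZ12 (-0.10, adjusted p 0.00298) and MTF2 (-0.09, adjusted p 0.015) were lower. EED (0.01, adjusted p 0.907) and RBBP4 (0.01, adjusted p 0.761) were not called. The calls for EZH1, JARID2 and PHF19 were kept in all 14 alternatives. Those for EZH2 and MTF2 were each lost in 3, that for SUZ12 in 4, that for PHF1 in 5 and that for RBBP7 in 11 of 14. DESeq2 and the fit of all 14 libraries each called 3 of 10. The fit of all 14 libraries called 4674 genes in all, against 7198. The calls for PHF1 were lost without 10 µM replicate 2 (0.08) and without 50 µM replicate 2 (0.06), that for EZH2 without 10 µM replicate 2, those for SUZ12 and MTF2 without 10 µM replicate 1, and that for SUZ12 also without 50 µM replicate 1. The call for RBBP7 was lost without 5 of the 6 libraries in turn, all except 10 µM replicate 1, and was smallest without 10 µM replicate 2 (0.03).

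The balance between alternative subunits was read from ratios of counts per kilobase, as a description without a test. The ratio of EZH1 to EZH2 was 0.475 and 0.463 in H2O, 0.453 and 0.458 at 10 µM and 0.529 and 0.542 at 50 µM. EZH2 transcripts were thus the more numerous in every batch 1 library, by a smaller margin at 50 µM. The ratio of JARID2 to the summed Polycomb-like genes (MTF2, PHF19 and PHF1) was 0.375 and 0.396 in H2O, 0.37 and 0.39 at 10 µM and 0.459 and 0.456 at 50 µM. Within the Polycomb-like genes, the share of MTF2 was 44.7% and 45.9% in H2O and 42.7% and 41.5% at 50 µM, and that of PHF1 was 22.1% and 20.4% in H2O and 23.3% and 24.4% at 50 µM.

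Genes of related complexes showed no common direction at 50 µM. Of 7 other PRC2-associated genes, 6 were tested, 3 rose and 1 fell. LCOR, whose locus also encodes a PRC2 partner of the PALI type, rose by 0.27 (adjusted p 2.06e-16), and its relative LCORL fell by 0.14 (adjusted p 1.32e-05). AEBP2, the usual companion of JARID2, was at a log2 fold change of 0.06 (adjusted p 0.133), and ELOB and ELOC, which encode elongins B and C, rose by 0.12 and 0.19. Of 26 genes of PRC1, the complex that ubiquitinates histone H2A, 6 rose and 4 fell. PHC3 (log2 fold change 0.29) and PCGF1 (0.34) were among the rises with the smallest adjusted p, while RNF2, a catalytic subunit, fell by 0.35 (adjusted p 9.65e-15). SCMH1 fell by 0.22 and SCML2 by 0.14.

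Of 9 tested genes of the deubiquitinase complex PR-DUB, which removes the PRC1 mark, 4 rose and 3 fell. OGT rose by 0.36, and BAP1, the deubiquitinase itself, fell by 0.24 (adjusted p 1.39e-10). Of 7 genes for enzymes that remove or oppose H3K27me3, 4 rose and 2 fell. KDM6A, an H3K27 demethylase, rose by 0.29 (adjusted p 1.99e-08), the acetyltransferase genes CREBBP and EP300 rose by 0.15 and 0.12, and NSD1, which methylates another residue of histone H3, fell by 0.38 (adjusted p 3.68e-33). The median log2 fold change of these lists was 0.09 for the PRC2-associated genes, 0.03 for PRC1, 0.01 for PR-DUB and 0.07 for the opposing enzymes. For all genes tested it was 0.002.

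Other genes moved with the CoCl2 comparison as well. Of 20 proliferation genes, 11 rose and 8 fell at 50 µM. The summed level was 4296 to 4306 CPM in H2O and 4349 to 4353 CPM at 50 µM, with RRM2 (log2 fold change 0.52), E2F1 (0.36) and E2F2 (0.41) higher and MKI67 (-0.42), CCNB1 (-0.47) and BUB1 (-0.41) lower. Of 8 fibroblast and mesenchymal markers, 6 were tested, 1 rose and 4 fell, and their sum was 169 to 170 CPM in H2O and 115 to 116 CPM at 50 µM, led by TWIST1. COL1A2 had 1 count over all batch 1 libraries. The 6 immune markers summed to 5.75 to 5.95 CPM in H2O and 19.2 to 19.7 CPM at 50 µM, nearly all from CD68, which many cell types express in lysosomes, and the 6 endothelial markers to 1.71 to 2.12 and 1.01 to 1.06 CPM. Their part in the PRC2 values was not tested. In bulk RNA, fewer cells of a type and less RNA per cell cannot be told apart.

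The second comparison asks whether the subunit transcripts differed in the labelled TET2 knockouts. PHF19 was higher than WT in all 3, by 0.15 to 0.26 on the log2 scale. EZH1 was lower in the average of the 3, by 0.17, and the other 8 subunits were not called in the average. The test called 18.9% of 14061 genes in the average (7.54% higher, 11.4% lower), against 2 of 10 subunits, a share near that of all genes. The median log2 fold change of the 10 was 0.01, against -0.00 for all genes (-0.0018). Taken without sign, the median change was 0.04 for the 10 and 0.09 for all genes. When the 6 labelled knockout libraries shared 1 coefficient, so that differences among the knockouts entered the spread, edgeR called 0 of 10 subunits. It then called 256 of all genes tested, against 2656 with separate coefficients, so a count of 0 of 10 says little about the subunits. PHF19 and EZH1 were then the 2 with an unadjusted p under 0.05, and DESeq2, with separate coefficients, called 1 subunit higher and 1 lower. All 3 labelled knockouts were set against the same WT libraries, so their values are not independent of each other.

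PHF19 encodes a Polycomb-like protein whose Tudor domain binds methylated lysine of active chromatin. Its level was 84.8 and 85.4 CPM in WT, 93.3 and 95.6 CPM in labelled knockout 1, 98.3 and 95.9 CPM in knockout 2 and 105 and 98.6 CPM in knockout 3. All 6 labelled knockout libraries lay above both WT libraries. The log2 fold change was 0.15 in knockout 1 (SE 0.05, adjusted p 0.0117), 0.19 in knockout 2 (SE 0.05, adjusted p 0.000499), 0.26 in knockout 3 (SE 0.05, adjusted p 1.22e-06) and 0.20 in the average (SE 0.04, adjusted p 6.76e-06). The calls in knockouts 2 and 3 were kept in all 17 alternatives. That in knockout 1 was lost without WT replicate 1 (0.15), WT replicate 2 (0.16) or knockout 1 replicate 2 (0.13), and that in the average with 1 shared coefficient (0.20), with adjusted p-values over the alternatives from 0.00146 to 0.133 and from 6.81e-07 to 0.0851. The 3 labelled knockouts were not called different from each other in PHF19 (range 0.11, adjusted p 0.111).

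EZH1 was measured at 37.4 and 36.8 CPM in WT, 34.2 and 31.2 CPM in labelled knockout 1, 34.0 and 32.9 CPM in knockout 2 and 31.9 and 34.2 CPM in knockout 3. All 6 labelled knockout libraries lay below both WT libraries. The fall was 0.19 in knockout 1 (log2 fold change -0.19, SE 0.07, adjusted p 0.0346) and 0.17 in the average (-0.17, SE 0.05, adjusted p 0.0132). In knockout 2 (-0.15, adjusted p 0.0736) and knockout 3 (-0.17, adjusted p 0.053) the difference did not pass the test, although it did in 1 and in 3 of 17 alternatives. The call in the average was lost without WT replicate 1 (-0.16), without WT replicate 2 (-0.18) and with 1 shared coefficient (-0.17), and its adjusted p ran from 0.00436 to 0.216 over 18 alternatives. The call in knockout 1 was lost without either WT library, without knockout 1 replicate 2 (-0.12) and in DESeq2, with adjusted p-values from 0.0135 to 0.423 over 17 alternatives.

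**Figure D3:**
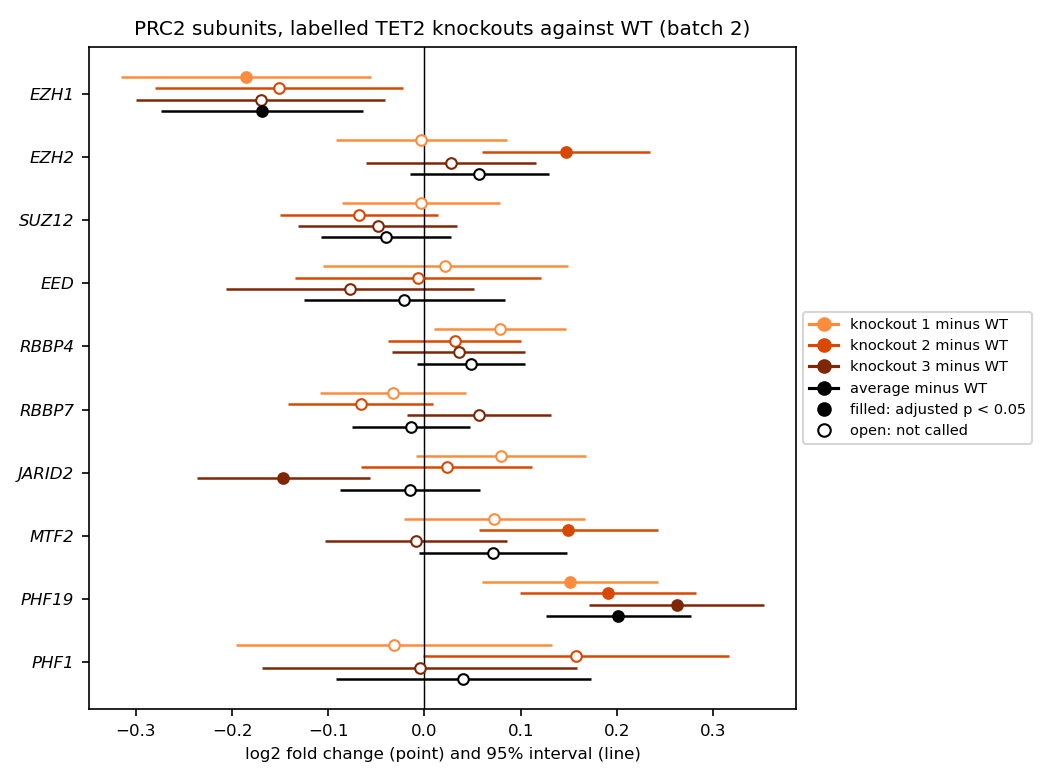
The x axis gives the log2 fold change against WT of each PRC2 subunit (y axis), as a point with its 95% interval, for labelled TET2 knockouts 1, 2 and 3 and their average. Filled points passed an adjusted p of 0.05. PHF19 is to the right of 0 in every comparison (0.15 to 0.26) and EZH1 to the left (-0.15 to -0.19), while JARID2 lies on both sides (0.08 to -0.15).

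In the single labelled knockouts, 2 of 10 subunits were called in knockout 1, 1 higher and 1 lower, against 17.5% of all genes (7.79% higher, 9.72% lower). In knockout 2 it was 3 of 10, all higher, against 26.3% (12% higher, 14.3% lower), and in knockout 3 it was 2 of 10, 1 higher and 1 lower, against 18.9% (8.9% higher, 9.96% lower). Knockout 2 had the additional rises. EZH2 went from 98.7 and 103 CPM in WT to 114 and 109 CPM in knockout 2 (log2 fold change 0.15, SE 0.04, adjusted p 0.00644). Its levels in knockout 1 (99.4 and 102 CPM) and knockout 3 (103 and 102 CPM) overlapped those of WT. MTF2 went from 81.6 and 89.8 CPM in WT to 95.9 and 94.3 CPM in knockout 2 (0.15, SE 0.05, adjusted p 0.00999). The calls for EZH2 and MTF2 in knockout 2 were lost without WT replicate 1 (0.11 and 0.08) and without knockout 2 replicate 1 (0.12 and 0.14). Their adjusted p-values ran from 0.0012 to 0.159 and from 0.00326 to 0.376 over 17 alternatives.

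JARID2 differed most among the labelled knockouts. It was at 99.1 and 102 CPM in WT, 108 and 104 CPM in knockout 1, 104 and 99.6 CPM in knockout 2 and 89.9 and 91.6 CPM in knockout 3. Knockout 3 lay below all other batch 2 libraries, at -0.15 on the log2 scale (SE 0.05, adjusted p 0.0118). That call was lost without WT replicate 2 (-0.13) and without knockout 3 replicate 1 (-0.13), with adjusted p-values from 0.00335 to 0.124 over 17 alternatives. A direct test among the 3 labelled knockouts called 4 of 10 subunits, against 37.6% of all genes. These were JARID2, EZH2, MTF2 and RBBP7. PHF1 (range 0.19, adjusted p 0.0962), PHF19, SUZ12 (0.06, adjusted p 0.423), EED (0.10, adjusted p 0.429), RBBP4 (0.05, adjusted p 0.454) and EZH1 (0.03, adjusted p 0.915) were not called.

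The core and histone-binding subunits and PHF1 were not called in any labelled knockout. SUZ12 was at 142 and 140 CPM in WT and between 130 and 146 CPM in the labelled knockouts (average -0.04, 95% interval -0.11 to 0.03, adjusted p 0.467). EED was at 34.5 and 40.8 CPM in WT and between 35.0 and 39.1 CPM in the labelled knockouts (-0.02, -0.13 to 0.08, adjusted p 0.839), so that its WT libraries spanned all the others. RBBP4 had an average of 0.05 (-0.01 to 0.10, adjusted p 0.249) and RBBP7 of -0.01 (-0.08 to 0.05, adjusted p 0.813). PHF1 was at 20.7 and 19.0 CPM in WT and knockout 2 stood at 22.1 and 22.1 CPM, where the log2 fold change was 0.16 (adjusted p 0.144), and its average was 0.04 (-0.09 to 0.17, adjusted p 0.749). These intervals bound the average difference and do not show that the levels were equal.

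The ratio of EZH1 to EZH2 per kilobase was 0.245 and 0.231 in WT, 0.222 and 0.198 in labelled knockout 1, 0.193 and 0.195 in knockout 2 and 0.2 and 0.216 in knockout 3. All 6 labelled knockout libraries lay below WT. The share of PHF19 among the Polycomb-like transcripts was 39.7% and 38.7% in WT, 40% and 41.9% in knockout 1, 40% and 39.7% in knockout 2 and 44.3% and 43.1% in knockout 3, where it was highest. The ratio of JARID2 to the Polycomb-like genes was 0.49 and 0.487 in WT, 0.489 and 0.482 in knockout 1, 0.448 and 0.435 in knockout 2 and 0.4 and 0.422 in knockout 3. It was lower in knockouts 2 and 3 than in WT, without overlap.

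**Figure D4:**
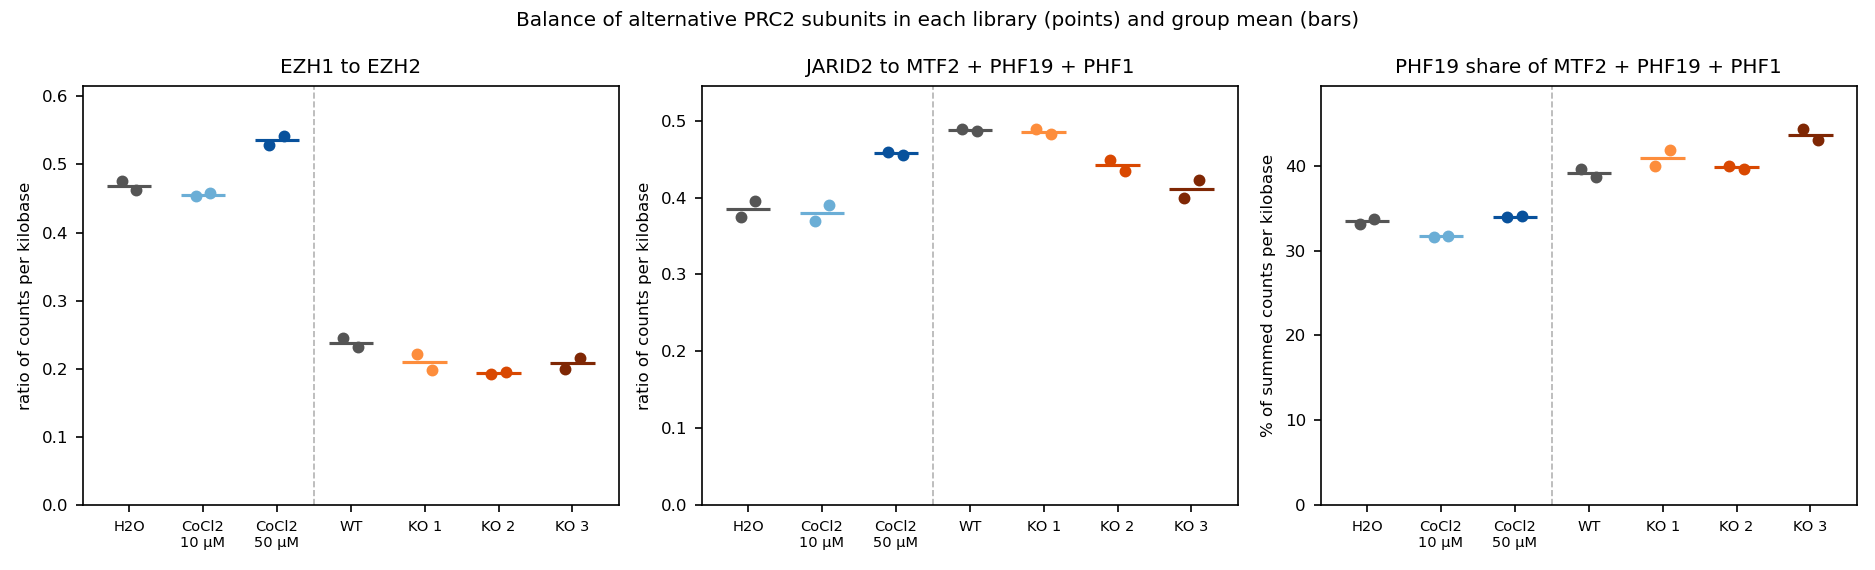
The panels plot, for each library (points) and group mean (bars), the ratio of EZH1 to EZH2, the ratio of JARID2 to the sum of MTF2, PHF19 and PHF1, and the share of PHF19 in that sum, all from counts per kilobase of exon on axes that start at 0. At 50 µM CoCl2 the first ratio is 0.529 and 0.542 and the second 0.459 and 0.456, the highest of batch 1, and labelled knockout 3 has the highest PHF19 share, 44.3% and 43.1%.

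The related lists were again counted in the average of the labelled knockouts. Of 26 PRC1 genes, 7 rose and 0 fell by edgeR's test (8 and 1 at an unadjusted p under 0.05, 6 and 0 in DESeq2), with CBX2 (log2 fold change 0.17, adjusted p 9.99e-06), PCGF5 (0.36, adjusted p 7.38e-05) and PCGF1 (0.24, adjusted p 0.000115) foremost. The median of the list was 0.05. Of 5 tested PRC2-associated genes 1 rose, ELOB (0.13, adjusted p 0.00692). Of 9 PR-DUB genes 2 fell, OGT (-0.10) and FOXK1 (-0.11). Of 7 genes for opposing enzymes 2 fell, NSD1 (-0.11) and KDM6B, the inducible H3K27 demethylase (-0.12, adjusted p 0.0107). With 1 coefficient for the labelled knockouts, 0 genes of these 4 lists were called by edgeR, where 256 of all genes tested were called. At an unadjusted p under 0.05 there were then 6 higher and 0 lower of PRC1, 1 higher of the PRC2-associated genes, 2 lower of PR-DUB and 0 of the opposing enzymes.

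EPOP, which links PRC2 to elongins B and C, could be tested in batch 1 alone. It had 1137 to 1507 counts per library there, with a log2 fold change of -0.05 at 50 µM (adjusted p 0.358). In batch 2 it had 0 or 1 count in every library, at or under the 3 counts that a count of 0 allows (0.0506 to 0.0576 CPM), and batch, culture and counting cannot be told apart for this difference. EZHIP, an inhibitor of EZH2, had 0 counts in all 14 libraries.

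Proliferation genes and markers of other cell types differed between WT and the labelled knockouts as well. Of 20 proliferation genes, 13 rose and 1, MKI67 (-0.08), fell in the average, and 17 rose and 0 fell in knockout 3 (18 and 0 at an unadjusted p under 0.05, 17 and 0 in DESeq2), where PHF19 was highest. Their summed level was 5675 to 5706 CPM in WT, 5939 to 6007 CPM in knockout 1, 5938 to 5941 CPM in knockout 2 and 6248 to 6312 CPM in knockout 3. The 8 fibroblast and mesenchymal markers summed to 652 to 672 CPM in WT and to 236 to 248, 282 to 288 and 230 to 236 CPM in knockouts 1, 2 and 3, and 4 of 7 tested fell in the average and 0 rose by edgeR's test (5 and 1 at an unadjusted p under 0.05, 4 and 0 in DESeq2). In the single knockouts the mesenchymal markers did not all fall: 1 rose and 4 fell in knockout 1, and 2 rose and 4 fell in knockout 3. TWIST1 was called higher in knockout 1 (0.26) and knockout 3 (0.30) and lower in knockout 2 (-0.25). LUM was called higher in knockout 3 (0.39) and lower in knockout 2 (-0.44). COL1A2 had 6 counts over all batch 2 libraries. The 6 endothelial markers summed to 11.8 to 12.2 CPM in WT and to 1.7 to 4.99 CPM in the labelled knockouts, with 4 lower and 0 higher in edgeR, in DESeq2 and at an unadjusted p under 0.05. Of 6 immune markers 2 were tested, and in the average 0 were called by edgeR or DESeq2 or had an unadjusted p under 0.05, with a sum of 11.8 to 13.0 CPM in WT and 7.74 to 16.7 CPM in the labelled knockouts. CD68 was called higher in knockout 2 (0.42, adjusted p 0.000471) and lower in knockout 3 (-0.53, adjusted p 0.000166). MYCN was at 4600 and 4678 CPM in WT, against 2815 and 2837 CPM in knockout 2, the group with the rises of EZH2 and MTF2. It was at 4548 and 4594 CPM in knockout 1 and at 4700 and 4715 CPM in knockout 3. In batch 1, MYCN and EZH2 were both called higher than H2O at 10 µM (log2 fold change 0.09 and 0.10). At 50 µM MYCN was called lower (-0.22) and EZH2 higher (0.22), and MTF2 was called at neither dose. With 1 coefficient for the labelled knockouts, calls fell to 1 proliferation gene higher, 1 mesenchymal marker lower and 3 endothelial markers lower. The part of these genes in the PRC2 values was not tested.

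For 4 subunits, the genes with the most similar profile were sought among 13372 others by Pearson's correlation of log2 CPM centred within each batch. These values describe 14 libraries that share groups, replicates and scaling, and no p is given. PHF19 was most like KIF22, a mitotic kinesin (0.954 over all, 0.978 within batch 1 and 0.95 within batch 2), then NMRAL1 (0.916) and MXD3, which encodes a MAX partner (0.91). EZH1 was most like WDR27 (0.945), SLC25A37, a mitochondrial iron carrier (0.944), and WDR26 (0.94). Its values with these ran from 0.97 to 0.992 within batch 1 and from 0.828 to 0.85 within batch 2. JARID2 was most like ZFYVE1 (0.957), VIM, which encodes the intermediate filament vimentin (0.936), and the seryl-tRNA synthetase gene SARS1 (0.934). Within batches 1 and 2 these were 0.977 and 0.911 for ZFYVE1, 0.988 and 0.849 for VIM, and 0.947 and 0.955 for SARS1. EZH2 was most like NAPRT, an enzyme of NAD synthesis (0.965), PCDHAC1 (0.958) and ZNF766 (0.953). PCDHAC1 shares exons with other protocadherin genes, so its counts are uncertain.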

How the data were processed

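RNA of 14 SK-N-BE2 libraries was measured, 2 in each of 7 groups, and groups and replicate numbers were read from the labels. The deposited values are raw counts per gene name, made by the authors with featureCounts (1.5.3 for batch 1, 2.0.5 for batch 2) over exons of GENCODE 33 protein-coding genes with the paired-end option and no strand option, per the file headers. Trimmomatic 0.36, STAR 2.6.1d and GRCh38 are named in the submitters' processing notes. Of counts from 1 to 10, 39.0% to 42.3% were even in batch 1 and 77.3% to 80.5% in batch 2, where both reads of a pair were mostly counted.

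Each batch was fitted alone in R 4.3.3 with edgeR 4.0.16 (filterByExpr, TMM, quasi-likelihood F-test with legacy = FALSE and robust = TRUE, dispersion of at least 0.0001001, below which edgeR's deviance is inaccurate). The 8 comparisons were each adjusted by Benjamini-Hochberg over 13636 or 14061 genes and called under 0.05. SE is the log2 fold change over the square root of F. Replicates differed by more than counting noise (chi-square per gene 1.23 to 1.46 in batch 1, 3.86 to 5.52 in batch 2). Counting both reads of a pair raises this value in batch 2, so the batches cannot be compared on it. The test was also run on simulated counts. There all genes of a batch shared the same dispersion and few were changed, so its error rate in these data was not measured. The alternatives were DESeq2 1.42.0, other scalings, no filter, legacy settings, a replicate block, all 14 libraries in 1 fit, batch 2 counts divided by 2, 1 coefficient for the labelled knockouts, and each library left out in turn.

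Members and lists were chosen with earlier results of these data known. The rule named all 10 members, with up to 3 genes per direction of each other list, those of smallest adjusted p at 50 µM and in the average of the labelled knockouts, and AEBP2, EPOP, EZHIP, COL1A2 and CD68, chosen after their values were seen. Intervals cover counting error and the spread between these libraries. Promoter sequences are those of RefSeq (GRCh38.p14). Protein sequences were not used here, and the values of some listed genes are not reported here.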

Additional observations from a re-analysis of the deposited data

Results flagged for a closer look

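Subunits that differed among the 3 labelled TET2 knockouts in a direct F-test of edgeR were flagged. The value is the distance between the largest and the smallest log2 fold change against WT. The flagged subunits were 4 of 10, close to the 37.6% of all genes that the same test called. Over all genes tested the median distance was 0.19, and among the flagged subunits only JARID2 lay above it. The distance was 0.23 for JARID2 (adjusted p 2.88e-05), with knockout 3 lowest and knockout 1 highest. The distance was 0.15 for EZH2 (adjusted p 0.00727), with knockout 2 highest. For MTF2 it was 0.16 (adjusted p 0.015), again with knockout 2 highest. For RBBP7 it was 0.12 (adjusted p 0.0153), with knockout 3 highest at 186 and 186 CPM and knockout 2 lowest at 172 and 169 CPM. The JARID2 call was kept in all 17 alternatives, that of EZH2 in 16, that of RBBP7 in 15 and that of MTF2 in 12. The EZH2 call was lost without knockout 2 replicate 1 (0.12), and the RBBP7 call without knockout 2 replicate 2 (0.11) and knockout 3 replicate 1 (0.13). The MTF2 call was lost in DESeq2 and without either library of knockout 2 (0.15 and 0.17) or of knockout 3 (0.15 for each).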

How the results depend on the processing

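Of 1280 values of single subunits recomputed under the alternatives, 1207 kept their call and direction, 63 lost a call, 10 gained one and 0 reversed. At 50 µM the calls for EZH1, EZH2, JARID2, PHF1 and RBBP7 were kept in all 14 alternatives. The count at 10 µM, 1 of 10 subunits, was 0 without a filter on low counts, in DESeq2 and in the fit of all 14 libraries, where all genes called were 1122 in DESeq2 and 796 in the joint fit, against 3098. At an unadjusted p under 0.05 the subunits at 10 µM were 2 in edgeR, 2 without the filter, 0 in DESeq2 and 0 in the joint fit. Between the doses, DESeq2 and the joint fit called 3 subunits each, against 8, and the joint fit called 4674 genes, against 7198. In labelled knockout 1 DESeq2 called 1 subunit, against 2. With 1 coefficient for the labelled knockouts, 0 subunits and 256 genes were called, against 2 and 2656, and 22.3% of the calls were higher, against 39.9%. The cause was not tested.

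With each library left out in turn, a remaining single library was assumed to vary like the others, and subunits called were 0 to 2 at 10 µM, 6 to 7 at 50 µM, 5 to 7 between doses, 0 to 2, 1 to 3 and 1 to 3 in labelled knockouts 1, 2 and 3, 1 to 2 in the average and 2 to 4 among them. All genes called ran from 1860 to 3291, 7331 to 8370 and 5979 to 7222 for the CoCl2 comparisons, and from 1375 to 2586, 2406 to 3766, 1568 to 2615, 1587 to 2703 and 3754 to 5363 for those of the labelled knockouts. Without division by exon length, the EZH1 to EZH2 ratio was 0.725 in H2O, 0.704 at 10 µM, 0.827 at 50 µM, 0.368 in WT and 0.325, 0.299 and 0.322 in labelled knockouts 1, 2 and 3, since EZH1 has the longer exons.

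Same-numbered replicates did not deviate together (correlations of -0.0411 to 0.0725), so numbers were not taken as pairs. With a replicate block, 1 call of a subunit was lost, RBBP7 between the doses (log2 difference 0.05), and no other call of a subunit changed. A group of 2 libraries gives a poor estimate of its own spread, and the number of independent cultures is unknown. Counting without strand limits RBBP4, RBBP7 and PHF1, and gene counts say nothing of isoforms, protein or H3K27me3.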
